A study of Arabidopsis thaliana with 30 samples.

Results

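HAT2 (AT5G47370), a gene of chromosome 5 that encodes a class II homeodomain-leucine zipper protein, was followed across 5 kinds of Arabidopsis root sample with and without auxin. It was matched by symbol and locus in the probe annotation, which gave 1 probe set, 1 of 13355 genes that could be named and 1 of 9323 that were tested. Its signal was higher with auxin on every array of every sample type than on any mock array, and the rise was 3.63-fold to 6.13-fold.

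Homeodomain-leucine zipper (HD-ZIP) proteins are transcription factors found in plants. They bind DNA as dimers through a homeodomain and an adjoining leucine zipper, and most members of class II carry a short motif that represses transcription. HAT2 is known as an early auxin-inducible gene, and several of its class II relatives are known from the shade avoidance response, in which plants react to light filtered by neighbours. Auxin acts by bringing about the breakdown of Aux/IAA repressors, which frees auxin response factors to act on their target genes.

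The arrays were hybridised with RNA from roots of 1-week-old seedlings of the accession Col-0, treated for 2 h with 5 µM of the natural auxin indole-3-acetic acid (IAA) or with solvent alone (mock). Cell populations were sorted by green fluorescence after 1 h of wall digestion, which for the auxin groups was carried out with IAA still present. The stele, the central vascular cylinder, came from the reporter line pWOL::GFP, and the xylem-pole pericycle, the layer in which lateral roots begin, from the enhancer trap line E3754. Epidermal and lateral root cap cells, here called the epidermis, came from pWER::GFP and the columella, the central root cap, from the enhancer trap line PET111. Each sorted group thus holds whatever cells carry that reporter. Intact roots were neither digested nor sorted, and hold cell types that none of the 4 lines marks. Each of the 10 groups had 3 arrays, 30 in all. Nothing in the labels says whether the 3 came from separate cultures, so p-values reflect how far these samples vary among themselves, a variation that may be technical. Seedlings were grown in liquid or on agar, and which samples were grown in which way is not given.

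Array medians ran from 54.4 to 83.0 signal units, and an array's mean correlation with the others of its group was between 0.923 and 0.975 (Pearson, across genes, which are not independent replicates). Few markers of the cell types could be named: 1 of 5 for the pericycle, 3 of 12 for the epidermis with the lateral root cap, 1 of 9 for the columella, 2 of 7 tested for the endodermis and cortex, and none of 16 for the stele. Among mock sorted cells LZY3 (AT1G72490), a gravity signalling gene of the columella, had a signal of 87.9 ± 46.2 (SD, n = 3) in the columella and means between 9.51 and 19.7 elsewhere. The root hair expansin genes EXPA7 (AT1G12560) and EXPA18 (AT1G62980) were highest in the epidermis among the sorted cells, at 295 ± 49.3 and 314 ± 51.6 (SD, n = 3), though both were above 80 in the mock stele and pericycle. The other epidermal marker tested, XTH26 (AT4G28850), hardly separated the epidermis (50.9 ± 34.1) from the columella (43.0 ± 19.6). All 3 were higher in mock intact roots than in the sorted epidermis, with means of 441 (EXPA7), 1598 (EXPA18) and 652 (XTH26). LBD16 (AT2G42430), which acts in lateral root initiation and is itself raised by auxin, was at 178 ± 82.1 in the mock pericycle and 64.3 ± 27.2 in the mock stele. The label of the stele could not be checked with the markers at hand.

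HAT2 was well within the measured range without auxin. In the mock stele the 3 arrays gave signals of 150, 192 and 161, and with auxin 1082, 1298 and 958. In the pericycle the mock arrays gave 252, 234 and 112, and the auxin arrays 799, 856 and 845. In the epidermis the signals were 129, 200 and 145 without auxin and 672, 817 and 852 with it. The lowest auxin array in each of these 3 tissues was more than 3 times the highest mock array, so the groups did not overlap. In the columella mock signals were 296, 204 and 203, and auxin signals 1022, 809 and 821. In intact roots they were 102, 134 and 100 without auxin, and 530, 551 and 551 with it. These groups did not overlap either. How many of all genes tested had groups separated in this way was not counted. Ranked among all 22810 probe sets of its array, HAT2 lay between the percentiles 55.3 and 76.8 on the 15 mock arrays and between 84.5 and 94.0 on the 15 auxin arrays.

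**Figure D1:**
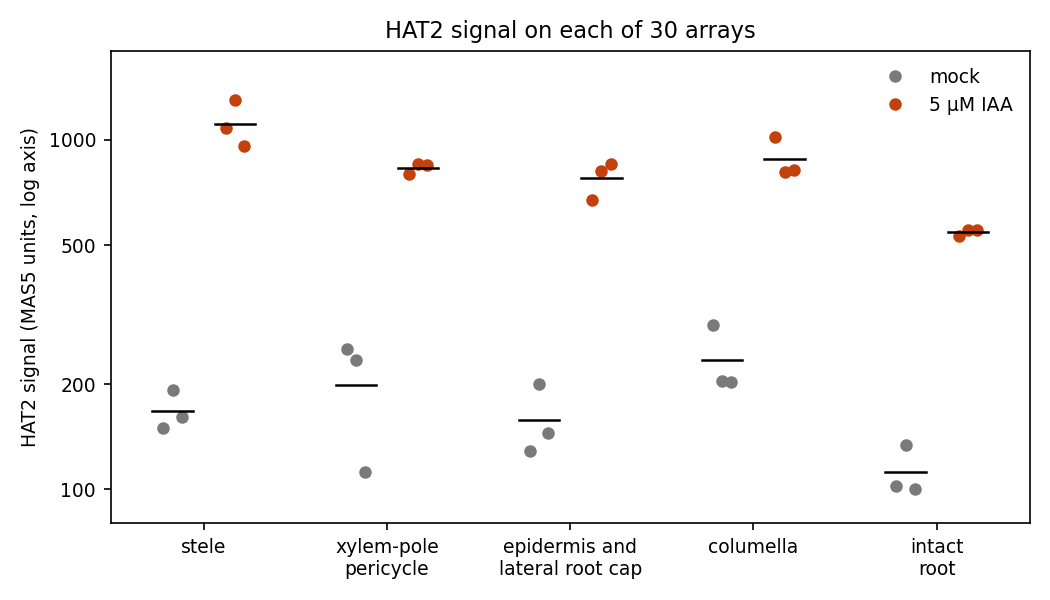
HAT2 signal (vertical log axis, units of the deposited signal) on each of the 30 arrays, by sample type (horizontal axis) and treatment; points are arrays and black lines are means of 3. The auxin arrays lie between 530 and 1298 and the mock arrays between 100 and 296, with intact roots lowest in both treatments.

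The auxin response, auxin minus mock on the log2(signal + 16) scale, passed the test in all 5 sample types. The standard error (SE) comes from 1 spread shared by all 10 groups. Within groups the SD of HAT2 on this scale ran from 0.03 (intact roots with auxin) to 0.59 (mock pericycle). HAT2 rose by 2.62 ± 0.23 in the stele (SE; 6.13-fold; limma, adjusted p = 8.59e-11), where 14.2% of all genes tested were called higher. Among called genes of the stele 58.3% were higher, against 46.4% after quantile normalization, which left the HAT2 change at 2.62. In the pericycle the rise was 2.05 ± 0.23 (4.15-fold; limma, adjusted p = 3.22e-08), against 6.56% of genes called higher. Over the alternatives its adjusted p from limma reached 5.17e-04 at most. The epidermis gave 2.21 ± 0.23 (4.63-fold; limma, adjusted p = 3.55e-09) with 5.95% of genes called higher, and the columella 1.86 ± 0.23 (3.63-fold; limma, adjusted p = 1.78e-07) with 3.75%. Intact roots gave 2.14 ± 0.23 (4.41-fold; limma, adjusted p = 4.89e-09), and 6.61% of genes were called higher there. The average over the 4 sorted tissues was 2.18 ± 0.11 (4.55-fold; limma, adjusted p = 8.52e-18), with 24.9% of genes called higher. Of the genes called on average 60.6% were higher, against 50.5% after quantile normalization. The added 16 makes these fold changes slightly smaller than ratios of raw signals.

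Cell type markers also moved with treatment. Of the 3 epidermal markers 2 fell with auxin in each sorted tissue, with list medians between −2.62 and −1.06, and none was called in intact roots (median 0.26). The share of all genes called lower was 10.1% in the stele, 5.70% in the pericycle, 6.82% in the epidermis, 3.34% in the columella and 5.34% in intact roots. Both endodermis and cortex markers fell in intact roots (median −1.39) and neither was called in any single sorted tissue, though SGN3 rose on average over the sorted tissues by 0.62 (limma, adjusted p = 4.81e-04). The pericycle marker LBD16 rose everywhere, and LZY3 rose in the columella. Their part in the HAT2 response was not tested.

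Ranked by size, this response placed HAT2 16th of 9323 genes in the stele, 25th in the pericycle, 39th in the epidermis, 56th in the columella and 84th in intact roots. As a check that does not borrow spread from other genes, treatment labels were permuted within each sample type. The mean difference over the 5 sample types was 2.18, and an exact two-sided permutation test over 3200000 regroupings gave p = 6.25e-07, the smallest that this design can give. Within 1 sample type, 3 arrays against 3 cannot reach a p below 0.1 in such a test.

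**Figure D2:**
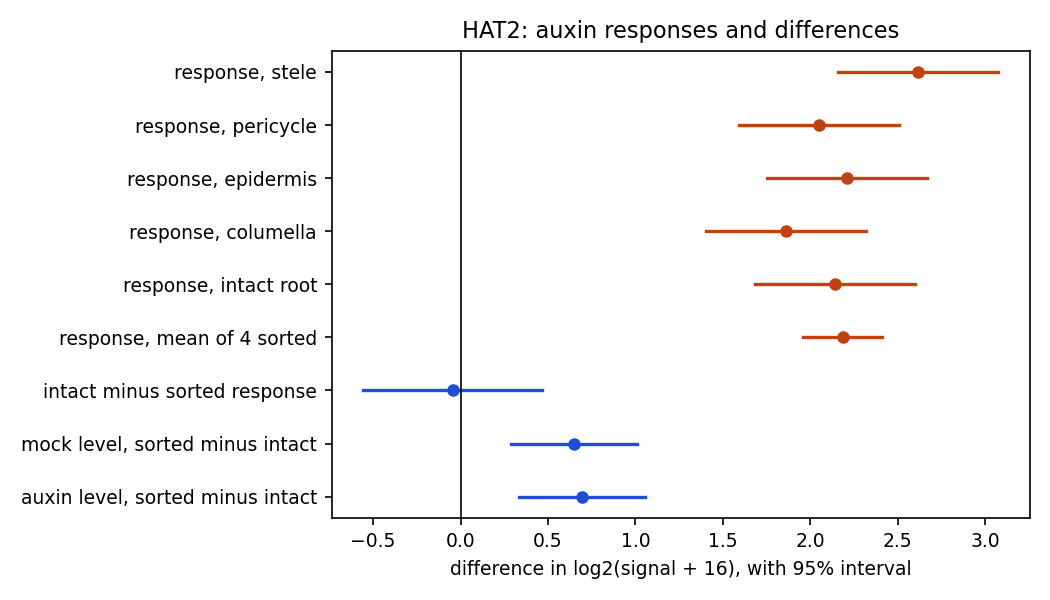
HAT2 differences in log2(signal + 16) (horizontal axis) with 95% intervals from the fit; orange marks auxin minus mock and blue marks comparisons of sorted tissues with intact roots. All 6 responses lie between 1.86 and 2.62, the difference of responses between intact and sorted roots lies at −0.04 with an interval across 0, and the level differences lie at 0.65 and 0.69.

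The size of the response was then compared between tissues. The F-test among the 4 sorted tissues did not pass (limma, adjusted p = 0.447), whereas 2.59% of genes did. From stele to columella, the largest and the smallest response, the difference was 0.76 on the log2 scale, with a 95% interval from 0.11 to 1.40. That was the only pair of 10 whose unadjusted interval left out 0. Stele and pericycle differed by 0.56 (interval −0.08 to 1.21), stele and epidermis by 0.41 (interval −0.24 to 1.05), and epidermis and columella by 0.35 (interval −0.29 to 1.00). The intervals leave room for differences of more than 1 log2 unit, so equal responses were not shown.

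Response size in intact roots was close to the sorted average. The intact response minus the sorted average was −0.04 ± 0.25 (SE; limma, adjusted p = 0.939), with an interval from −0.56 to 0.47, and the sign turned without pericycle mock replicate 3 (0.040) and without intact root mock replicate 2 (0.074). In that comparison 11.1% of genes were called in either direction. Exposure was longer by the digestion time in sorted samples, and exposure, digestion and sorting cannot be told apart here.

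Without auxin, HAT2 signal was lowest in intact roots, at 112 ± 18.9 (SD, n = 3), and rose in order through the epidermis (158 ± 37.3), stele (168 ± 22.1), pericycle (199 ± 76.0) and columella (234 ± 53.5). No neighbours in this order differed beyond their spread: the 95% interval of each neighbouring difference held 0. The columella level was above the epidermis level by 0.53 on the log2 scale (interval 0.07 to 0.98, unadjusted) and above the level of intact roots by 0.96 (interval 0.50 to 1.41). An F-test of mock levels among the 4 sorted tissues did not pass (limma, adjusted p = 0.209), although 35.0% of genes passed it. This result rested on the pericycle array with a signal of 112: without pericycle mock replicate 3 the adjusted p from limma was 0.0397. That array's mean correlation with its group was 0.941, against 0.940 and 0.946 for the other 2.

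With auxin the order changed. Intact roots were again lowest, at 544 ± 11.9 (SD, n = 3), followed by the epidermis (780 ± 95.4), pericycle (833 ± 30.4), columella (884 ± 120) and stele (1113 ± 172). The step from intact roots to the epidermis was 0.50 (interval 0.04 to 0.96, unadjusted), and no other neighbours differed beyond their spread. The stele, below the pericycle and columella without auxin, was highest with it and exceeded the epidermis by 0.50 (interval 0.04 to 0.96). Among the 4 sorted tissues the F-test of auxin levels did not pass (limma, adjusted p = 0.213), while 55.3% of genes passed it.

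Sorted cells had more HAT2 signal than intact roots in both treatments. The mean of the 4 mock tissues was 0.65 ± 0.18 above mock intact roots (SE; 1.57-fold; limma, adjusted p = 0.00197), and with auxin the difference was 0.69 ± 0.18 (1.62-fold; limma, adjusted p = 0.00108). Shares of 30.2% and 31.4% of genes were called higher in the same 2 comparisons, so such a call was common. Intact roots include the endodermis and cortex, and the 2 markers tested for these were both lower on average in mock sorted cells. SGN3 (AT4G20140), an endodermal receptor kinase gene, had a mock signal of 880 ± 163 in intact roots and means between 78.0 and 194 in the sorted tissues (SD, n = 3). C1 (AT1G09750) had a mock signal of 318 ± 105 in intact roots, and sorted means from 102 in the epidermis to 361 ± 278 in the columella. The columella arrays of C1 gave 197, 205 and 682. The mock sorted average minus intact roots was −2.58 for SGN3 (limma, adjusted p = 1.25e-12) and −0.75 for C1 (limma, adjusted p = 0.0190). In that comparison 2868 of 9323 genes were called lower. Cell composition, digestion and sorting cannot be told apart in this comparison, and in bulk samples fewer cells of a type cannot be told apart from less RNA per cell.

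Treatment accounted for 88.8% of the sum of squares of HAT2 over the 30 arrays, sample type for 6.50%, their interaction for 1.17% and the spread within groups for 3.55%. For the median gene tested, these shares were 4.61% for treatment and 54.4% for sample type. Only 3 of the 9323 genes tested had a larger treatment share. They were IAA29 (AT4G32280), an Aux/IAA repressor, with 95.1%, GH3.3 (AT2G23170) with 94.7% and GH3.5 (AT4G27260, listed as WES1) with 91.9%. GH3.3 and GH3.5 are enzymes that join auxin to amino acids. Probe sets not named as 1 gene, 8730 unlisted and 503 of several genes, were not ranked. These shares describe the 30 arrays and were not tested. Called higher in all 5 sample types were 49 genes, and 12 of them had a narrower range of their 5 responses than HAT2, whose range was 0.76 against a median of 1.14.

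**Figure D3:**
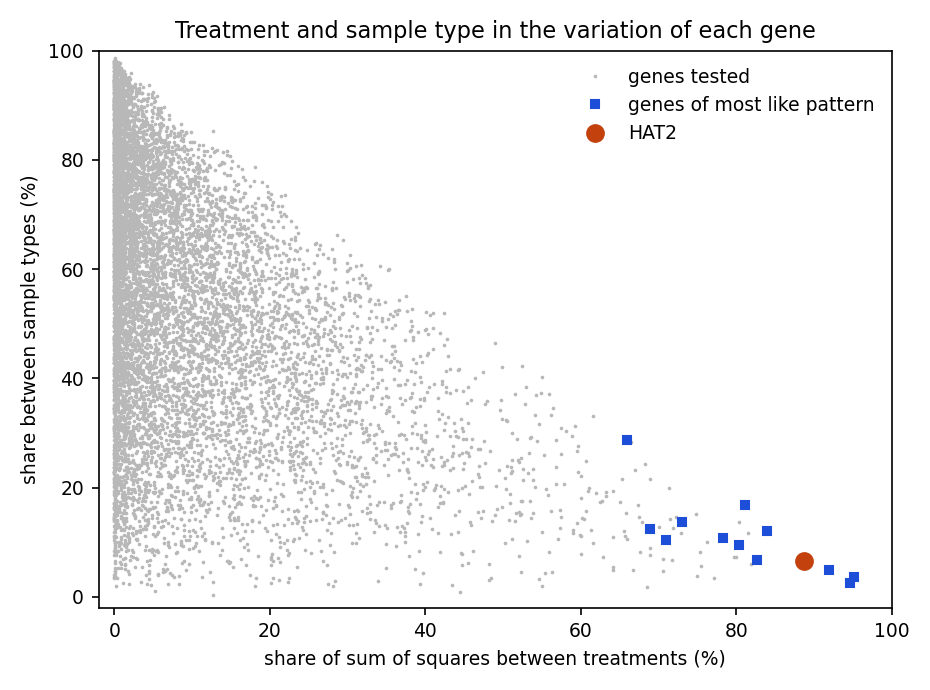
Share of each gene's sum of squares that lies between treatments (horizontal axis, percent) and between sample types (vertical axis, percent), over 30 arrays; grey points are the 9323 genes tested, blue squares the genes whose pattern was most like that of HAT2. HAT2 (orange) lies at 88.8% and 6.50%, at the far right with IAA29, GH3.3 and GH3.5.

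Genes with the most similar pattern were sought over the 30 arrays by Pearson correlation of log2 signal, as a description, since all genes share the arrays, their scaling and the treatment. IAA30 (AT3G62100), another Aux/IAA gene, was the most similar with r = 0.94, also under each of 4 other scalings or pseudocounts. AT5G62280 and IAA29 followed with r = 0.91 each, AT5G47440 with 0.91, AT3G60650 with 0.90, and AT5G51670, AT1G11280 and GH3.3 with 0.89. AT2G17680 (0.88) and AT3G10840 (0.87) completed the first 10. The median over 9322 genes was 0.07. AT5G47440 lies near HAT2 on chromosome 5, with 9 annotated genes between them. When each sample type's mean was subtracted first, so that differences between sample types no longer counted, the 5 most similar genes were GH3.3 (r = 0.97), AT5G62280 (0.97), GH3.5 (0.96), IAA29 (0.96) and AT3G26760 (0.95). After subtraction of each group's mean, r for these 12 genes ran from −0.47 to 0.63, with 0.63 for AT1G11280 as the highest and 0.39 for AT5G62280 next.

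That these genes rise with auxin follows largely from how they were chosen, since most of the variation of HAT2 is by treatment, and their changes are given as a description. Several were near the floor of the arrays without auxin, where the size of a log2 change depends on the added 16. IAA30 rose by between 3.97 and 5.06 in the 5 sample types, and IAA29 by between 5.90 and 6.71. Mock means of IAA29 were between 5.05 and 12.4 outside the stele, and its columella change ran from 4.30 with 64 added to 8.12 with 1 added. The mock signal of IAA30 was 9.93 ± 4.38 in intact roots and had means between 81.0 and 211 in sorted tissues (SD, n = 3). The mock level of IAA30 was thus higher in sorted cells, in the same direction as that of HAT2, but by an amount that a signal so close to the floor does not fix. Its rise in intact roots ran from 3.31 with 64 added to 6.02 with 1 added. GH3.3 and GH3.5 showed the opposite order, with mock levels 2.37 and 1.80 lower in sorted cells than in intact roots. AT5G62280 rose by between 2.49 and 3.69. AT3G26760, whose rise in sorted tissues ran from 2.17 to 2.38, rose by 2.82 in intact roots.

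For AT5G47440 the rise was between 2.66 and 3.88 in sorted tissues and 1.44 in intact roots. AT2G17680 rose by between 2.99 and 4.51 in sorted tissues and by 1.29 in intact roots, from mock means between 0.93 and 11.7. With 64 or 1 added its change ran from 2.19 to 6.90 in the stele and from 0.48 to 3.62 in intact roots. AT5G51670 rose by between 1.52 and 2.33 in sorted tissues and by 1.12 in intact roots. AT3G60650 rose by between 2.60 and 4.30 in all 5 sample types, and in intact roots, with a mock mean of 7.41, its change ran from 2.37 to 5.59 with 64 or 1 added. Smaller rises were those of AT1G11280, an S-domain receptor kinase gene, by between 0.86 and 1.42, and of AT3G10840, by between 0.86 and 1.56 in the sorted tissues. AT3G10840 did not pass in intact roots (0.65), and its call in the pericycle was lost in 12 alternatives. In intact roots the call of AT2G17680 was lost in 6 and that of AT1G11280 in 5. In the pericycle the call of AT1G11280 was lost in 3 alternatives, and the rise was 0.62 without pericycle mock replicate 3 (limma, adjusted p = 0.144). GH3.3 rose by between 4.91 and 7.74 and GH3.5 by between 3.83 and 5.97.

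**Figure D4:**
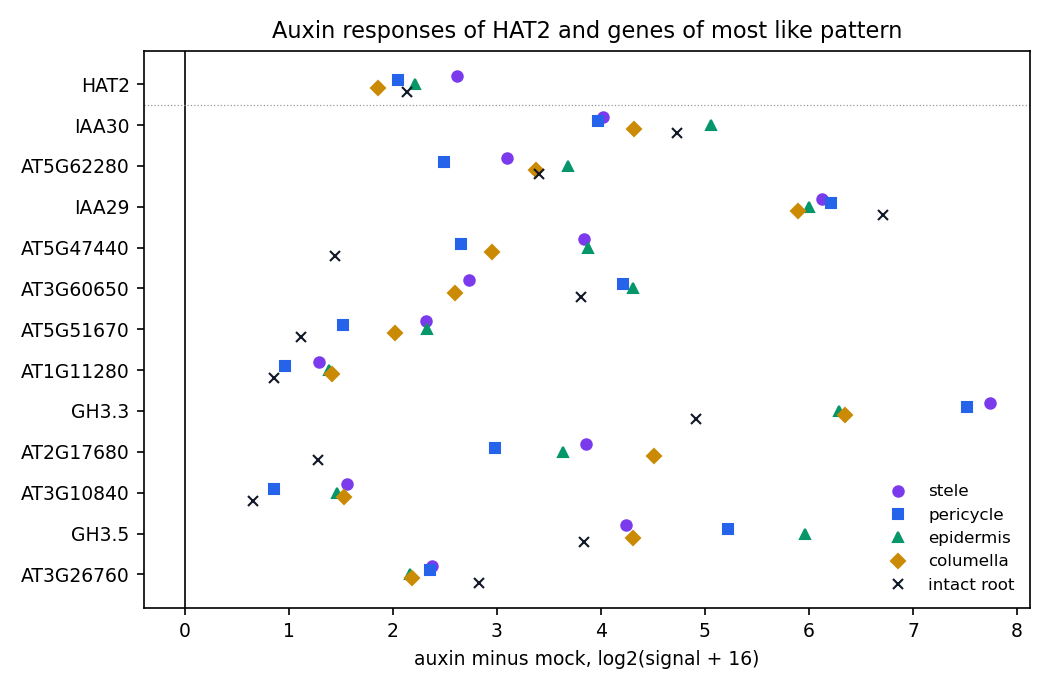
Auxin response, auxin minus mock in log2(signal + 16) (horizontal axis), of HAT2 and of the 12 genes of most similar pattern, with a symbol for each of the 5 sample types. The 5 responses of HAT2 span 0.76, from 1.86 to 2.62, and those of AT5G47440 span 1.44 to 3.88 with intact roots lowest.

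Changes of the genes beside HAT2 on the chromosome were smaller. The nearest tested gene before it, AT5G47360, adjoins HAT2 in the annotation and was called on average over the sorted tissues at 0.40 on the log2 scale, with changes between 0.03 and 0.72 in single sample types that did not pass. That average call was lost after quantile normalization (0.29; limma, adjusted p = 0.116), without epidermis auxin replicate 1 (limma, adjusted p = 0.0526) and without columella auxin replicate 1 (limma, adjusted p = 0.0554), and its stele change passed in 4 alternatives. AT5G47390, the nearest after it with 4 genes between, was called on average at 0.49, with changes between −0.20 and 0.59 that did not pass in any sample type. On the sorted average 24.9% of all genes were called higher, so such a call was common. Correlations with HAT2 over the 30 arrays were 0.60 and 0.41.

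Of the HD-ZIP genes, few could be compared. HAT2 was the single member of 10 class II genes on a named probe set, so its relatives ATHB2, HAT1, HAT3 and ATHB4 were not analysed here. How far the HAT2 probes bind transcripts of close relatives was not tested. None of 17 class I and 16 class IV genes was named, nor any of 5 genes of the TOPLESS corepressor family, whose members bind repressors with the motif common in class II. From class III, PHV (AT1G30490), a regulator of organ polarity and vascular patterning, was the member tested of 5. Its mock signal was 76.4 ± 30.9 in the stele and 24.5 ± 18.5 in the epidermis (SD, n = 3), and its changes with auxin, between −0.27 and 0.53, did not pass in any sample type.

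Genes of the auxin response were counted by list. For comparison, 14.2% of all genes were called higher in the stele, 6.56% in the pericycle, 5.95% in the epidermis, 3.75% in the columella and 6.61% in intact roots. Of the auxin-response lists, 6 of 29 Aux/IAA genes were tested. In each of the 5 sample types 3 of the 6 rose and none fell, with medians between 1.03 and 1.58, against medians of all genes between −0.02 and 0.14. The 3 were not the same genes throughout: IAA29 and IAA30 were called in all 5, and the remaining called gene changed with sample type. Of 11 GH3 genes 5 were tested, and 3 rose in the stele, pericycle and columella, with 4 in the epidermis and in intact roots, while 1 fell in the pericycle. Of 7 genes of lateral root initiation 3 were tested. Of these, 2 rose in the stele and in the pericycle, 1 in the epidermis and in the columella, and 3 in intact roots. LBD16, the member called in all 5, rose by 2.61 in the stele and by between 1.49 and 1.73 elsewhere (in the epidermis 0.91 with 64 added and 2.53 with 1 added), with a mock level that was 1.91 lower in sorted cells than in intact roots. HAT2 and IAA29 were the only members tested of a list of 19 shade avoidance genes. Both rose in every sample type, as given above, so this list adds no further gene.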

How the data were processed

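Expression was measured on 30 single-colour arrays, 3 for each of 5 sample types and 2 treatments, grouped by sample title. Per the labels' protocols, RNA was amplified before labelling with biotin. The deposited values are 1 intensity per probe set and array on a linear scale. Per the submitters' processing notes MAS5 was used. Its version, the chip definition and the build were not stated, so no coordinates are printed. Of 22810 probe sets, 64 were controls. The mean without the lowest and highest 2% of probe sets was 250.0 on every array, and no normalization between arrays was added. The number of arrays limits the precision.

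The platform annotation named 13513 probe sets with 1 gene and 503 with several, and left 8730 unlisted. Of the first, 13436 were found in RefSeq's TAIR10.1 gene table, used for names, chromosome and gene order. Where a gene had several probe sets, the brightest on average (log2 scale) stood for it. Genes were tested if above the 40th percentile of the array on at least 3 arrays. All values, as log2(signal + 16), entered 1 limma 3.58.1 fit (R 4.3.3) of 10 group means with an intensity trend, on 20 residual degrees of freedom. P-values are two-sided and adjusted by the Benjamini-Hochberg method over 9323 genes, and a call is an adjusted p under 0.05. Intervals are at 95% and unadjusted. The fits were tested on simulated data. Plots were made in Python 3.11.15 (matplotlib 3.10.9).

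HAT2 and the gene lists were chosen with earlier results of these data known. Other genes named are the 10 of highest correlation with HAT2 over 30 arrays, the 5 of highest correlation within sample types, the nearest tested neighbours, members tested of the HD-ZIP lists, and up to 4 members of other lists. The 3 genes of larger treatment share were chosen after their values were seen. Alternatives covered scaling, pseudocount, filter, rows tested, moderation, array weights, arrays in the fit, the replicate block and leaving out each array.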

Additional observations from a re-analysis of the deposited data

Results flagged for a closer look

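Of the genes with the pattern most like that of HAT2, 5 had responses that differed between sample types by a test of the difference itself, which 2.59% of all genes passed among sorted tissues and 11.1% between intact and sorted roots. The response of GH3.3 differed among the 4 sorted tissues (limma F-test, adjusted p = 0.00436) and was 2.06 lower in intact roots than in the sorted average (limma, adjusted p = 2.09e-07). GH3.5 differed in the same 2 ways (limma, adjusted p = 4.65e-04 among sorted tissues, and adjusted p = 9.82e-04 for a response 1.10 lower in intact roots). Responses in intact roots were also lower for AT2G17680, by 2.46 (limma, adjusted p = 9.64e-05), for AT5G47440, by 1.89 (limma, adjusted p = 5.13e-05), and for AT5G51670, by 0.93 (limma, adjusted p = 0.0249). Without auxin AT2G17680 was near the floor of the arrays, so the size of its difference depends on the pseudocount. AT5G47440 was also low without auxin, with a mean of 24.6 in intact roots. Over the other settings its rise ran from 0.84 to 1.90 in intact roots and from 2.44 to 3.88 on the sorted average. HAT2 itself was not called in either comparison. No test of outlying samples was run on these groups of 3 arrays.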

How the results depend on the processing

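Of 477 recomputed HAT2 values 473 kept their direction and their side of the threshold, among them all 320 of the 9 results with a call. Leaving out an array of another sample type cannot move the estimate of a response within 1 sample type. Nor can a change of filter, rows tested or moderation, so part of this agreement was fixed in advance. The stele response ran from 2.34 to 2.72 over the other settings, and the pericycle response from 1.71 without pericycle mock replicate 3 to 2.25. The intact response minus the sorted average turned to 0.0062 with a pseudocount of 1, and ran from -0.11 to 0.074 when 1 array was left out. The adjusted p of the mock level F-test ran from 0.0397 (without pericycle mock replicate 3) to 0.558 (limma, 1 array left out). The cause was not tested.

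Of 3808 recomputed values of the other named genes 3760 kept direction and call, but the size of changes from low mock signals moved with the pseudocount (AT2G17680 in the stele from 2.19 to 6.90, IAA29 in the columella from 4.30 to 8.12). For PHV the response turned to 0.14 in the pericycle and to 0.026 on average with array weights. When 1 array was left out it ran from -0.79 to 0.46 in the pericycle, from -0.51 to 0.14 in the epidermis, from -0.44 to 0.22 in the columella and from -0.20 to 0.11 on average. AT5G47360 in the columella turned to -0.068 after quantile normalization and ran from -0.20 to 0.35 with 1 array left out, and AT5G47390 in intact roots ran from -0.40 to 0.037.

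Testing all 17002 probe sets that passed the filter gave 4375 in place of 2270 called genes in the stele, 2326 for 1143 in the pericycle, 2381 for 1191 in the epidermis, 1369 for 661 in the columella, 2327 for 1114 in intact roots and 7177 for 3836 on average. It gave 621 for 241 in the F-test of responses, 2115 for 1036 between intact and sorted responses, and 6252 for 3267 and 9635 for 5152 in the F-tests of mock and auxin levels. Between sorted and intact levels it gave 10620 for 5686 (mock) and 10304 for 5504 (auxin). Counts from all probe sets are out of 17002 rows, against 9323 for genes, so part of each increase is the larger number tested. Array weights gave 642 in the pericycle, 2040 in intact roots, 433 in the F-test of responses and 1874 between intact and sorted responses. A fit of 6 arrays alone gave 386 in the pericycle and 1887 in intact roots. The F-test of responses also gave 159 with a pseudocount of 1, 427 with 64, 135 with sorted tissues alone and 148 without stele auxin replicate 2. The stele response gave 1511 without stele mock replicate 1 and 1453 without stele auxin replicate 2. Quantile normalization moved the median stele response from 0.14 to 0.02.

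Deviations of same-numbered arrays correlated over 0.1 in 6 of 15 pairs, with values from -0.01 to 0.38. Differently numbered arrays were not compared, so whether the numbers pair the samples could not be decided. With the replicate block within sample type, the HAT2 responses stayed the same (2.62 in the stele), and the F-test of responses gave an adjusted p of 0.295 in limma and 404 called genes. The block was not run for levels between sample types.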
